A study of Arabidopsis thaliana with 18 samples.

Results

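The genes described here are 35 Arabidopsis thaliana genes that carry out mitosis and cell division, taken as a list of gene names by function. The list was chosen with earlier results of these data known. The 35 genes are 9 B-type cyclins, 7 A-type cyclins, 4 CDKB kinases, 4 cytokinesis genes, 5 spindle genes and 6 others. These 6 are grouped as genes of the spindle checkpoint and the anaphase-promoting complex (APC/C). CKS2, a subunit that binds cyclin-dependent kinases, is counted with them. Their RNA was measured in shoot apical meristem cells sorted into 6 populations, with 3 libraries each and 18 in all. Of the 35 genes, 31 stood in at least 1 of the 15 tables that compare the 6 populations in pairs, and the same tables held 8356 genes in all.

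The B-type cyclins are CYCB1-1 (AT4G37490), CYCB1-2 (AT5G06150), CYCB1-3 (AT3G11520), CYCB1-4 (AT2G26760), CYCB2-1 (AT2G17620), CYCB2-2 (AT4G35620), CYCB2-3 (AT1G20610), CYCB2-4 (AT1G76310) and CYCB3-1 (AT1G16330). The A-type cyclins are CYCA1-1 (AT1G44110), CYCA2-1 (AT5G25380), CYCA2-2 (AT5G11300), CYCA2-3 (AT1G15570), CYCA2-4 (AT1G80370), CYCA3-1 (AT5G43080) and CYCA3-2 (AT1G47210). The CDKB kinases are CDKB1-1 (AT3G54180), CDKB1-2 (AT2G38620), CDKB2-1 (AT1G76540) and CDKB2-2 (AT1G20930). The cytokinesis genes are KNOLLE (AT1G08560), PLE (AT5G51600), HINKEL (AT1G18370) and POK1 (AT3G17360), the spindle genes TPX2 (AT1G03780), AUR1 (AT4G32830), AUR2 (AT2G25880), AUR3 (AT2G45490) and EDE1 (AT2G44190), and the checkpoint and APC/C genes CDC20.1 (AT4G33270), CDC20.2 (AT4G33260), MAD2 (AT3G25980), BUBR1 (AT2G33560), CCS52B (AT5G13840) and CKS2 (AT2G27970). The identifiers are those of the tables, and the cyclins and CDKB kinases are written with a hyphen, where the reference annotation has a semicolon (CYCB1;1 for CYCB1-1).

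All plants were in the ap1cal background, in which the flowering apex keeps forming new meristems, and all carried the same 3 reporters, in the T2 generation. The reporter pAtML1::mTag-BFP-ER marks the epidermis in blue, pREV::REV-2YPET marks in yellow the cells that make REV, an HD-ZIPIII transcription factor, and pmiR165a::GFPer marks in green the cells in which the miR165a promoter is active. Cells with blue and yellow are epidermal REV cells, those with blue and green are epidermal miR165a cells, and those with blue alone are epidermal gap cells. Cells with yellow alone are sub-epidermal REV cells, those with green alone are sub-epidermal miR165a cells, and cells with no colour are all negative cells, which can hold any tissue of the apex that none of the promoters marks. A population is therefore what these promoters light up in protoplasts of a mutant apex, and it is not a cell type dissected by position.

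Plant cells enter mitosis when B-type cyclins, and A-type cyclins before them, bind cyclin-dependent kinases, among which the CDKB kinases are particular to plants and are themselves made around the G2 and M phases. Aurora kinases and TPX2 build and control the spindle, the checkpoint proteins MAD2 and BUBR1 hold anaphase back until chromosomes are attached, and the APC/C with its activators CDC20 and CCS52 then has the cyclins destroyed. Plant cells divide by building a cell plate within the phragmoplast, for which KNOLLE (a syntaxin of membrane fusion), PLE (the microtubule bundler MAP65-3), HINKEL (a kinesin) and POK1 (a kinesin that keeps the division site) are used. Many of these genes are transcribed only in G2 and M, through MYB3R transcription factors that bind the MSA (mitosis-specific activator) element, whose core is AACGG. In a sorted bulk sample, fewer cells in mitosis and less mitotic RNA per cell cannot be told apart.

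The promoters were therefore read first, in the RefSeq annotation of the TAIR10.1 build, over 250 bases before and 50 bases from each annotated gene start. All 35 genes matched, and 22 of them (62.9%) held AACGG on either strand, against 6765 of 27443 protein-coding genes (24.7%). At least 2 cores stood in 15 of the 35 (42.9%), against 4.89% of all. A longer form, with C and any base before the core and any 2 bases and A after it, stood in 9 of the 35 (25.7%) against 545 of all (1.99%). By role, the core stood in 8 of 9 B-type cyclins, 3 of 7 A-type cyclins, 1 of 4 CDKB kinases, 3 of 4 cytokinesis genes, 4 of 5 spindle genes and 3 of 6 checkpoint and APC/C genes. A match of letters is a description and does not show that a factor binds, and the same holds for its absence.

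The promoters of 3 genes are printed here for the 250 bases before the start, 5′ to 3′ on the strand of the gene, with each core in capitals (AACGG, or CCGTT where it lies on the other strand). CYCB1-2 had the most cores, with 5 in the window and 4 in the bases printed. CYCB1-3, which had the widest span of levels below, had 3, all printed. CYCA2-1, whose levels followed another pattern, had 2.
CYCB1-2, chr5:1861704-1861953, minus strand: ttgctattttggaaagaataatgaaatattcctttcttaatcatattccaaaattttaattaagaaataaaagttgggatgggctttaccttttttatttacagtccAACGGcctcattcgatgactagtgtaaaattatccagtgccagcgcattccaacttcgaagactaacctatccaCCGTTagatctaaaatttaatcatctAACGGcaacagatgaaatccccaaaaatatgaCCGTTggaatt
CYCB1-3, chr3:3627274-3627523, minus strand: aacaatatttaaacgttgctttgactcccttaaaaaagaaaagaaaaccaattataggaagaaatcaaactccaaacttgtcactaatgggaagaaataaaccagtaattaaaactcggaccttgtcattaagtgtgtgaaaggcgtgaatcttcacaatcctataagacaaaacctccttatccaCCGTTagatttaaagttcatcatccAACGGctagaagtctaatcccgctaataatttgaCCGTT
CYCA2-1, chr5:8814267-8814516, plus strand: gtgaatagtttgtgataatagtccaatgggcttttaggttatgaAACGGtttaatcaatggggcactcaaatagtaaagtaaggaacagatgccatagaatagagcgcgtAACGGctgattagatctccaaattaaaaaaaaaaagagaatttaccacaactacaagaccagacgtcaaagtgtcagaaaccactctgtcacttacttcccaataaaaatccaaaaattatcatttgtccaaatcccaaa

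**Figure D1:**
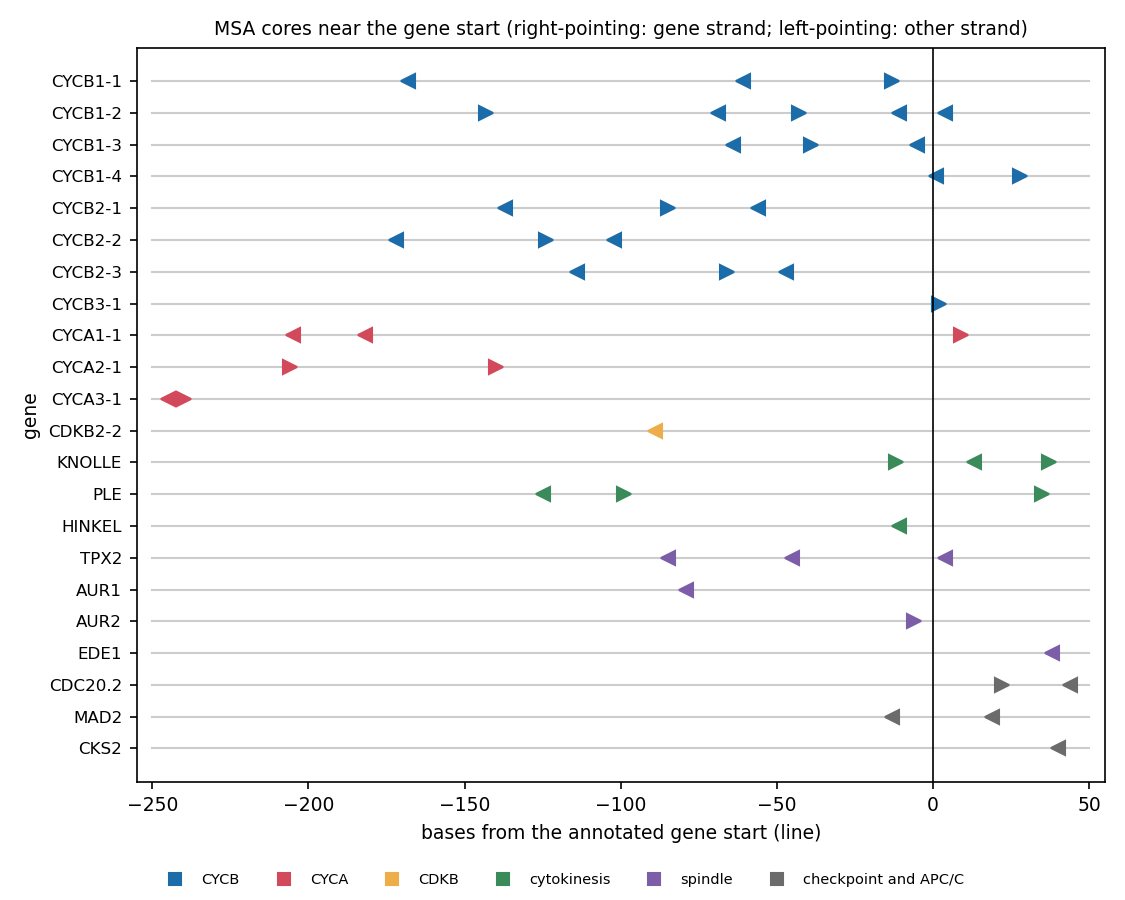
Position of each MSA core, in bases from the annotated gene start (vertical line), in the 22 of 35 genes that held one. Each row is a gene, triangles point right for cores on the strand of the gene and left for cores on the other strand, and colours give the role of the gene. Of 49 cores, 28 began within the 150 bases before the start, which is 57.1% of the cores in 50.0% of the window.

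The levels below are normalized counts, that is reads per gene divided by a factor for library size, as means over the 3 libraries of a population. They were rebuilt from the mean over all libraries and the fold changes in the authors' deposited tables, which hold no values per library. Depth per library, single libraries and how many libraries moved one way are therefore unknown. Levels could be rebuilt for 24 of the 35 genes, those whose tables link all 6 populations. Their standard errors (SE) are on the log2 scale and come from a model of count noise chosen after seeing the data. The paper names 3 biological replicates for each type of sample. It does not state that those of the sorted cells came from separate harvests, so the errors may cover only the spread between these libraries. The mean over all libraries ran from 16.2 normalized counts (CDKB1-2) to 444 (CCS52B) over the 31 genes, with a median of 135, which sets the precision and is not a level per gene length.

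In all 24 genes the level was highest in epidermal REV cells. The level was lowest in all negative cells in 21 genes, and in sub-epidermal miR165a cells in CYCA2-4, CYCA3-1 and CDKB1-2. A gene has levels only where its called differences link every population, and many of these differences involve epidermal REV cells. The selection therefore favours such genes, and the count of 24 is not separate evidence from the comparisons below. The share of all genes with levels that were highest in epidermal REV cells was not computed. By median rank the order was epidermal REV, sub-epidermal REV, epidermal gap, epidermal miR165a, sub-epidermal miR165a and all negative cells. On the log2 scale, the median level relative to the mean of each gene was 1.25 in epidermal REV cells, 0.52 in sub-epidermal REV cells, 0.12 in gap cells, -0.46 in epidermal miR165a cells, -0.52 in sub-epidermal miR165a cells and -0.83 in all negative cells. The highest level was 3.27 to 7.36 times the lowest, with a median of 4.44.

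**Figure D2:**
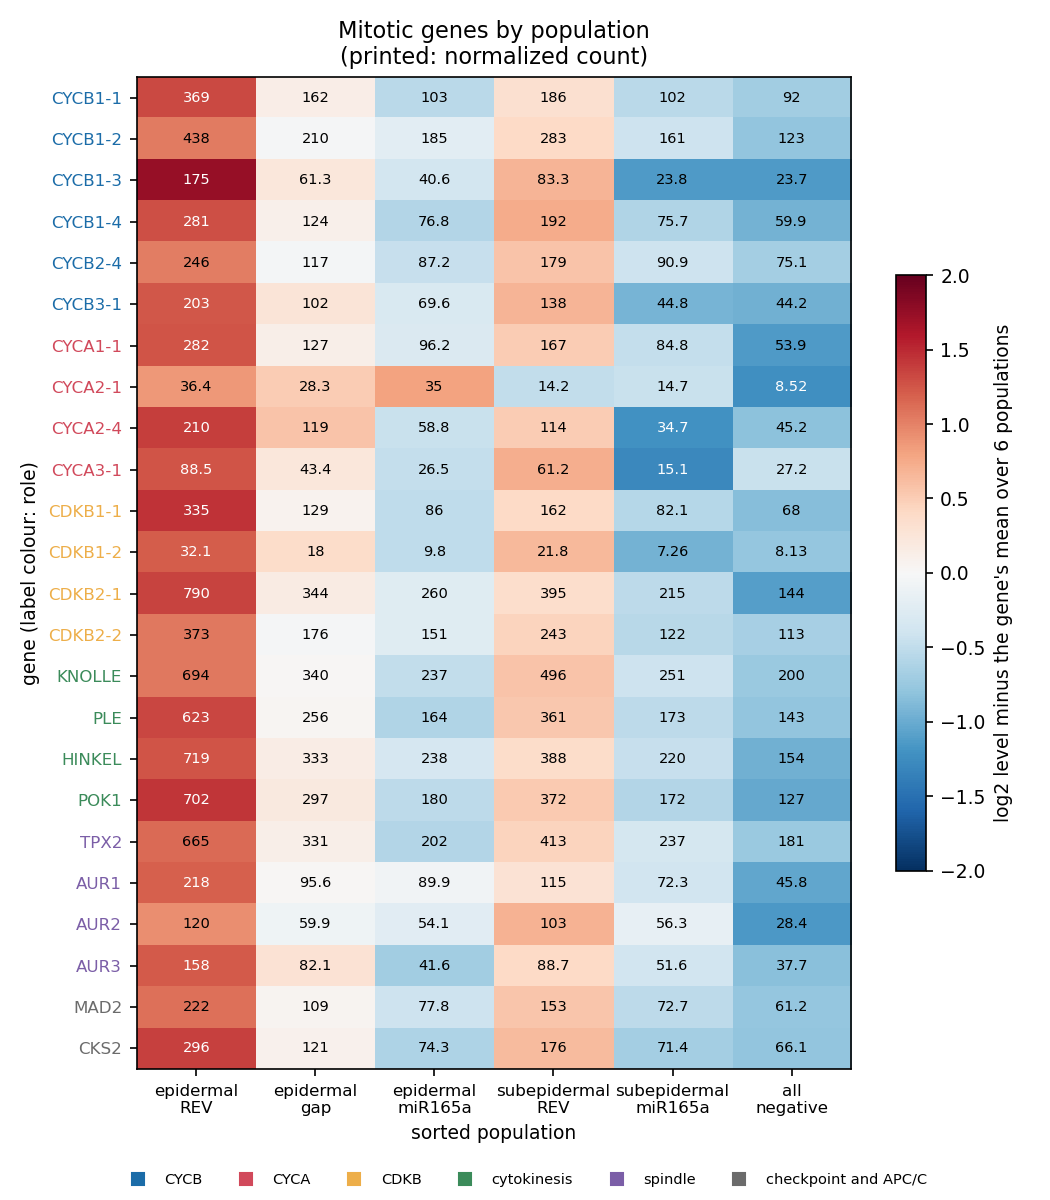
Level of 24 mitotic genes in the 6 sorted populations. Each row is a gene and each column a population, the printed number is the normalized count, and colour is the log2 level minus the mean of that gene over the 6 populations. The epidermal REV column is the highest in every row, and CYCA2-1 is the row in which epidermal miR165a cells come next. Only genes whose called differences link all 6 populations are shown.

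Among the B-type cyclins, which drive the entry into mitosis, CYCB1-3 stood at 175 normalized counts in epidermal REV cells, 61.3 in gap cells, 40.6 in epidermal miR165a cells, 83.3 in sub-epidermal REV cells, 23.8 in sub-epidermal miR165a cells and 23.7 in all negative cells. The last pair were close, and the epidermal REV level was 7.36 times that of all negative cells. CYCB1-1, the cyclin used in common reporters of G2 and M cells, stood at 369, 162, 103, 186, 102 and 92.0 in the same order. In CYCB1-1 the epidermal and sub-epidermal miR165a cells were thus at nearly the same level. CYCB1-2 (438 to 123), CYCB1-4 (281 to 59.9), CYCB2-4 (246 to 75.1) and CYCB3-1 (203 to 44.2) fell from epidermal REV to all negative cells as well.

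The CDKB kinases, partners of these cyclins, were read next. CDKB1-1 stood at 335 normalized counts in epidermal REV cells, 129 in gap cells, 86.0 in epidermal miR165a cells, 162 in sub-epidermal REV cells, 82.1 in sub-epidermal miR165a cells and 68.0 in all negative cells. CDKB2-1 ran from 789.9 in epidermal REV cells to 144 in all negative cells, and CDKB2-2 from 373 to 113. Reads can be shared between close copies, since the coding sequences of CDKB2-1 and CDKB2-2 are 86.6% identical and those of CDKB1-1 and CDKB1-2 are 85.9% identical, so their separate values are uncertain. The same holds for AUR1 and AUR2 (84.2%), CYCB2-1 and CYCB2-2 (82.5%) and CYCB2-3 and CYCB2-4 (81.8%). CDKB1-2 had few counts, at 32.1 in epidermal REV cells and 7.26 in sub-epidermal miR165a cells, with log2 SEs of 0.31 and 0.37.

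Among the cytokinesis genes, KNOLLE stood at 694 normalized counts in epidermal REV cells, 339.7 in gap cells, 237 in epidermal miR165a cells, 496.5 in sub-epidermal REV cells, 251 in sub-epidermal miR165a cells and 200.3 in all negative cells. Both REV populations were the highest in KNOLLE and both miR165a populations were close. POK1 went from 702 to 127, HINKEL from 719 to 154 and PLE from 623 to 143 between epidermal REV and all negative cells. In the spindle, TPX2, which nucleates microtubules and activates Aurora kinase, went from 665 to 181 and AUR3, an Aurora kinase of centromeres, from 158 to 37.7. AUR2, an Aurora kinase of the spindle and cell plate, was, of the 24 genes with levels, the one in which both REV populations were nearest, at 119.9 and 103, against 54.1 and 56.3 in the miR165a populations and 28.4 in all negative cells.

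**Figure D3:**
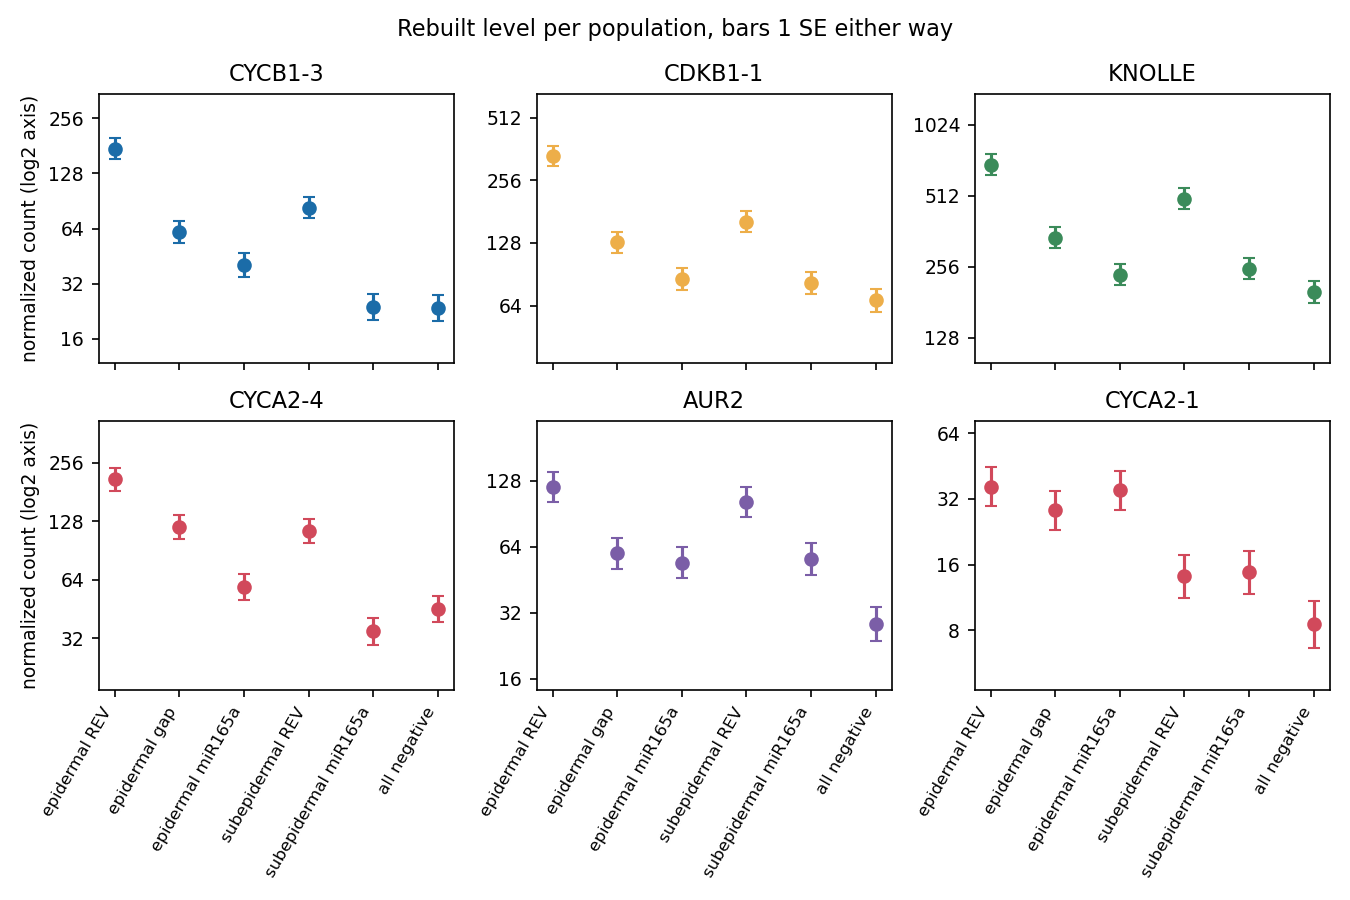
Rebuilt level of 6 genes (normalized count, log2 axis, a panel per gene) in the 6 populations, with bars of 1 SE either way. CYCB1-3, CDKB1-1, KNOLLE and CYCA2-4 are highest in epidermal REV cells, AUR2 is at 119.9 and 103 in the REV populations, and CYCA2-1 is at 28.3 to 36.4 in the epidermal populations and at most 14.7 in the others.

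The first comparison asked how the REV domain differs from the miR165a domain within the epidermis. In it and in those that follow, a gene is called when the authors' deposited table lists it, which needs a Benjamini-Hochberg adjusted Wald p no larger than 0.05 over all genes and a log2 difference of 1 or more in size. Fold changes are log2 values with their SE. Shares of all genes called are over the 8356 genes called in at least 1 of the 15 comparisons. Of the 35 genes, 31 are among them. In epidermal REV cells 28 of the 35 genes were higher than in epidermal miR165a cells and 0 were lower, where 13.1% of the 8356 genes were called higher and 29.8% lower. The median fold change was 1.55 over the 29 genes with a value and -0.75 over the 5712 genes of all with one. The called genes included 7 of 9 B-type cyclins (CYCB1-3, 2.11 ± 0.29, adjusted p = 1.16e-11, and CYCB1-1, 1.85 ± 0.23, adjusted p = 2.84e-14), 4 of 4 CDKB kinases (CDKB1-1, 1.96 ± 0.25, adjusted p = 4.19e-14) and 4 of 4 cytokinesis genes (PLE, 1.93 ± 0.22, adjusted p = 4.37e-16, and POK1, 1.96 ± 0.24, adjusted p = 2.10e-14). CKS2, the small subunit that binds cyclin-dependent kinases, was 1.99 ± 0.24 higher (adjusted p = 5.93e-15), and AUR3 was 1.92 ± 0.28 higher (adjusted p = 6.75e-11). In the same comparison 5 of 7 stomatal lineage markers and 4 of the 4 photosynthesis markers in the tables were lower in epidermal REV cells, while 0 of 5 epidermis markers were called. Of the vascular markers PXY was higher (1.53 ± 0.34, adjusted p = 4.96e-05) and SUC2 lower (-1.92 ± 0.64, adjusted p = 0.0105), and ATHB8, WOX4 and APL were not called. The part of these markers in the result was not tested.

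Against epidermal gap cells, the blue cells between both domains, 19 of the 35 genes were higher in epidermal REV cells and 0 lower, where 3.69% of the 8356 genes were called higher and 12.7% lower. The median fold change was 1.08 over 24 genes and -0.40 over 4911 of all. CYCB1-3 was 1.51 ± 0.27 higher (adjusted p = 1.31e-06), CDKB1-1 1.38 ± 0.23 (adjusted p = 2.34e-07), CKS2 1.29 ± 0.23 (adjusted p = 7.29e-07) and PLE 1.29 ± 0.22 (adjusted p = 2.18e-07). Called genes lay close to the fold limit, and 18 of the 19 were under a log2 fold change of 1.5. Without the fold limit and with modelled SEs, 22 of the 24 genes with levels passed the adjusted p here, all higher (9.6% of 3832 genes passed higher and 31.6% lower), and CYCA2-1 and CDKB1-2 did not. Read the same way, 23 of 24 passed over epidermal miR165a cells, all higher (14.8% and 47.3%). Of 7 stomatal lineage markers 4 were lower in epidermal REV than in gap cells, as were 2 of the 4 photosynthesis markers in the tables (RBCS1A and CAB1), and their part in the result was not tested.

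Gap cells and epidermal miR165a cells differed less. Only CYCA2-4, a cyclin of the A2 group that acts with CDKB1-1, was called, at 1.02 ± 0.31 higher in gap cells (adjusted p = 0.0107), where 5.05% of all genes were called higher and 9.29% lower. CYCA2-4 stood at 119 normalized counts in gap cells and 58.8 in epidermal miR165a cells, which do not overlap at 1 SE. With the modelled SE, a further 6 of the 24 genes passed the adjusted p under the fold limit, all higher in gap cells (CYCB1-1, PLE, POK1, TPX2, AUR3 and CKS2, 0.64 to 0.98), where 12.0% of 3832 genes passed higher and 24.6% lower, and 17 did not pass. The median was 0.57 over 24 genes, and 23 of them had a value above 0. Of 7 stomatal lineage markers 2 were higher and 2 lower in gap cells, and their part in the result was not tested.

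Below the epidermis, 11 of the 35 genes were higher in sub-epidermal REV than in sub-epidermal miR165a cells and 0 were lower, where 12.7% of the 8356 genes were called higher and 13.1% lower. The median fold change was 0.98 over 28 genes and -0.10 over 4974 of all. CYCB1-3 was 1.81 ± 0.31 higher (adjusted p = 1.40e-07), CYCB3-1, a B-type cyclin of its own group, 1.62 ± 0.29 (adjusted p = 5.92e-07) and CYCA2-4 1.72 ± 0.31 (adjusted p = 1.12e-06). CYCA3-1, a cyclin of S phase, was highest in fold change at 2.02 ± 0.39 (adjusted p = 3.37e-06), with 61.2 normalized counts against 15.1. Among the others were CKS2 (1.31 ± 0.24, adjusted p = 1.40e-06), PLE (1.06 ± 0.22, adjusted p = 4.11e-05), POK1 (1.11 ± 0.24, adjusted p = 7.41e-05) and MAD2 (1.07 ± 0.26, adjusted p = 5.97e-04).

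The count of 11 rests on the fold limit. Fold changes and SEs of unlisted genes could be rebuilt from the other tables. With them, 14 further genes passed the adjusted p with fold changes under 1, all of them higher in REV cells. The share of all genes was not computed for rebuilt SEs. KNOLLE (0.98 ± 0.21), CDKB2-2 (0.99 ± 0.21), CDKB1-1 (0.98 ± 0.25) and CYCA1-1 (0.98 ± 0.24) were such genes. With modelled SEs, 22 of the 24 genes with levels passed without the fold limit, all higher (24.3% of 3832 genes passed higher and 29.4% lower). In the fit on these 2 populations alone, CYCB2-4, CDKB2-2 and KNOLLE were listed, at or just above the limit. Of 5 vascular markers 4 were also higher in sub-epidermal REV cells and 1 of the 4 photosynthesis markers was lower, and their part in the result was not tested.

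Sub-epidermal REV cells were further from all negative cells, with 27 of the 35 genes higher and 0 lower, where 8.9% of all genes were called higher and 9.11% lower. CYCA1-1, an A-type cyclin of mitosis, was 1.63 ± 0.24 higher (adjusted p = 1.64e-09), POK1 1.55 ± 0.24 (adjusted p = 1.73e-08), KNOLLE 1.31 ± 0.21 (adjusted p = 5.96e-08) and CYCB1-3 1.81 ± 0.31 (adjusted p = 1.67e-07). AUR2 had the largest fold change of the 27, at 1.85 ± 0.34 (adjusted p = 2.53e-06). In the same comparison 3 of 5 vascular markers were higher (ATHB8, PXY and WOX4) and 1 was lower (SUC2), 1 of 7 stomatal lineage markers was lower (FAMA), and their part in the result was not tested. Sub-epidermal miR165a and all negative cells had 0 genes called in either direction, where 1.32% of all genes were called higher and 3.81% lower. With the modelled SE, 0 of 24 passed the adjusted p (4.2% of 3832 genes passed higher and 8.66% lower). An unadjusted p of at most 0.05 was found in 6 of the 24, and the share of all genes with one was not computed. The median was 0.30, and values ran from -0.85 (CYCA3-1) to 0.99 (AUR2).

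**Figure D4:**
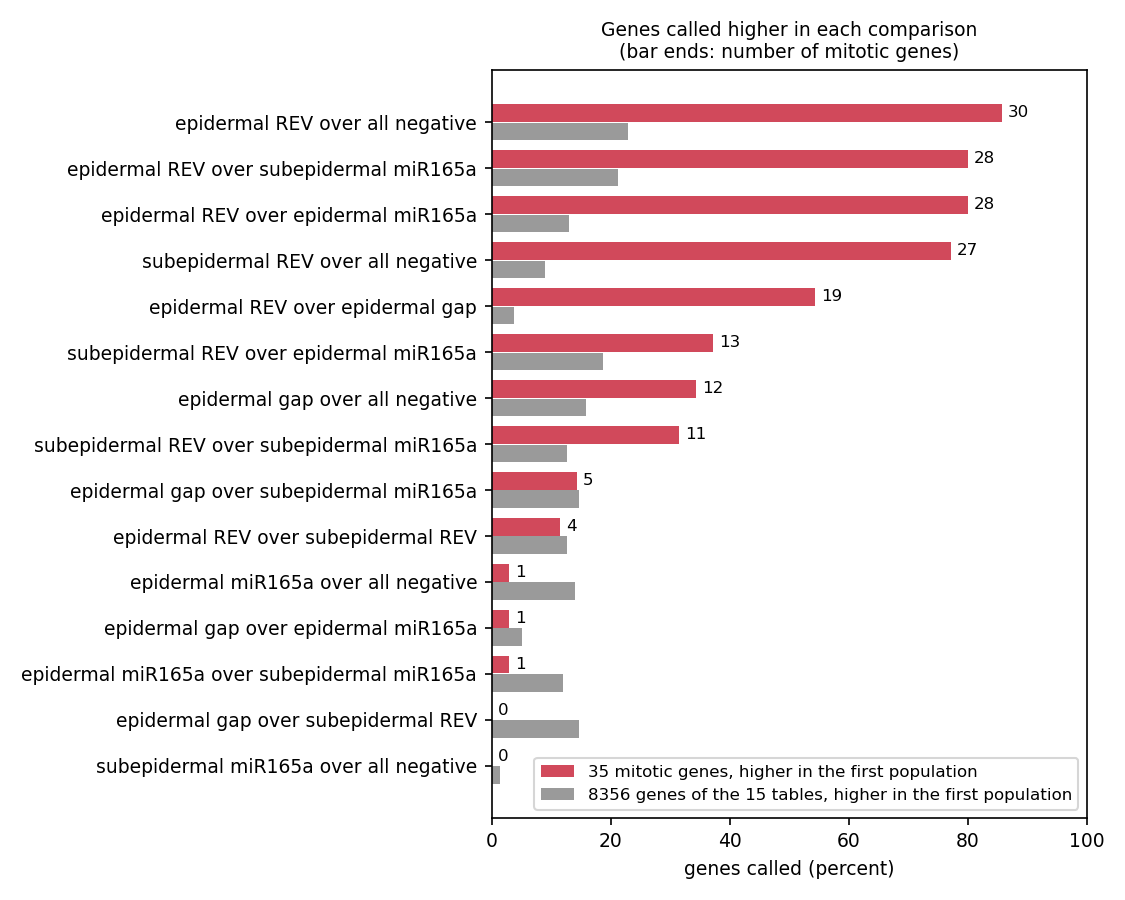
Share of genes called higher in the first population of each of the 15 comparisons (percent), for the 35 mitotic genes (red, with their number at the bar end) and for the 8356 genes in the tables (grey). The 4 longest red bars, 27 to 30 genes, all have a REV population first and a miR165a or all negative population second, and the comparison of both REV populations has 4 genes, near the grey bar. The bars carry no error, since each is a count from 1 fit.

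The layers were compared within a domain. Epidermal REV cells had 4 of the 35 genes higher than sub-epidermal REV cells and 0 lower. Of all genes, 12.6% were called higher and 32.2% lower, so the share of mitotic genes called higher was near that of all. The 4 were CDKB1-1 (1.05 ± 0.23, adjusted p = 5.10e-05), CYCA2-3 (1.06 ± 0.24, adjusted p = 1.02e-04), CYCB1-3 (1.07 ± 0.27, adjusted p = 4.52e-04) and CYCA2-1 (1.36 ± 0.44, adjusted p = 0.00777). All 30 genes with a value were above 0, with a median of 0.66 against -1.05 over 5330 of all. With the modelled SE a further 13 of the 24 genes passed the adjusted p under the fold limit, all higher in epidermal REV cells, where 25.3% of 3832 genes passed higher and 53.4% lower. In the same comparison 4 of 5 vascular markers and the 4 photosynthesis markers in the tables were lower in epidermal REV cells and 5 of 7 stomatal lineage markers were higher, and their part in the result was not tested.

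Epidermal and sub-epidermal miR165a cells had 1 gene called, CYCA2-1, where 12.0% of all genes were called higher and 12.8% lower. With the modelled SE, the other 23 of the 24 genes did not pass the adjusted p (23.7% of 3832 genes passed higher and 28.0% lower). An unadjusted p of at most 0.05 was found in 5 of the 24, and the share of all genes with one was not computed. The median fold change was 0.10 over 27 genes, with 20 above 0, and it was -0.04 over 5226 of all. Of 7 stomatal lineage markers 5 were higher in epidermal miR165a cells and 2 of the 4 photosynthesis markers were lower, and their part in the result was not tested.

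The design crosses layer with domain, so the fold change of REV over miR165a cells was compared between the layers, with a two-sided z test on the difference, adjusted over all genes for which it could be computed. The SEs allowed this for 10 of the 35 genes, and 3 passed with a larger fold change in the epidermis, where 15.3% of 1733 genes did. They were CDKB1-1 (difference 0.98 ± 0.35, adjusted p = 0.0101), POK1 (0.85 ± 0.34, adjusted p = 0.0248) and HINKEL (0.78 ± 0.32, adjusted p = 0.0269). The other 7 did not pass, and CYCA3-1 had a difference of -0.28 ± 0.53. With a larger fold change below the epidermis 0 of the 10 passed, against 768 of the 1733 genes. The median difference was 0.59 over the 10 genes and -0.90 over all, and with SEs 1.5 times wider 0 of the 10 passed.

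With the modelled SE, all 24 genes could be tested and 7 passed, where 12.6% of 3832 genes passed in that direction. Beside CDKB1-1, POK1 and HINKEL they were AUR3 (1.14 ± 0.38, adjusted p = 0.00803), CYCB1-1 (0.97 ± 0.32, adjusted p = 0.00715), TPX2 (0.92 ± 0.31, adjusted p = 0.00866) and PLE (0.87 ± 0.31, adjusted p = 0.0143). The difference was above 0 in 22 of the 24, with a median of 0.55. In the other direction 0 of the 24 passed, against 1439 of the 3832 genes. CYCB1-3, CYCB3-1, CYCA2-4 and CYCA3-1, which had the largest fold changes below the epidermis, had differences of 0.30 ± 0.42, -0.08 ± 0.40, 0.12 ± 0.43 and -0.28 ± 0.53, and did not pass. A p that misses the limit does not show that the layers are alike in them.

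**Figure D5:**
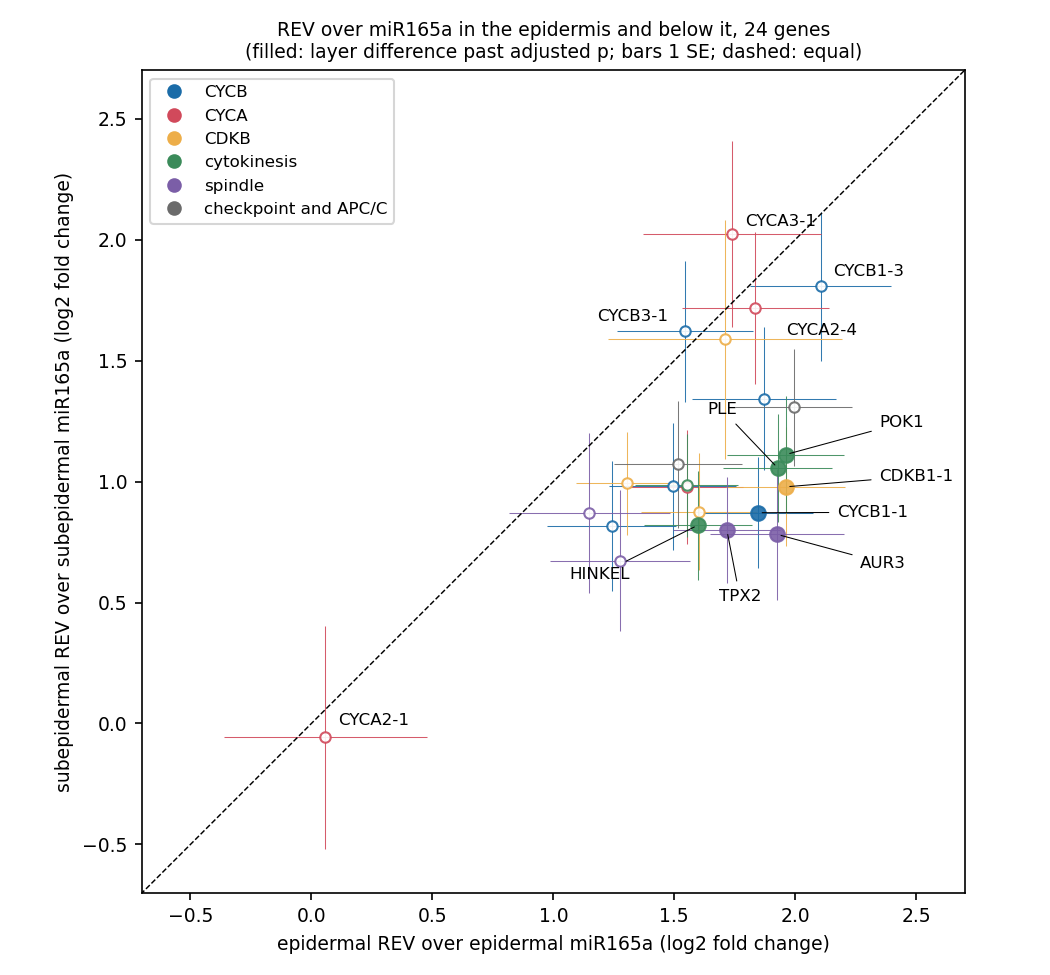
Log2 fold change of REV over miR165a cells in the epidermis (horizontal) and below it (vertical) for 24 mitotic genes, with bars of 1 SE. The dashed line marks equal fold changes, filled points are the 7 genes whose difference passed the adjusted p with the modelled SE, and 22 of the 24 points lie below the line.

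The remaining comparisons set cells of different layer and domain side by side and share populations with those above, so they are not separate evidence. Epidermal REV cells had 30 genes higher and 0 lower than all negative cells (background 22.9% higher and 40.6% lower), and 28 higher and 0 lower than sub-epidermal miR165a cells (21.2% and 38.2%). The largest fold change in both was that of CYCB1-3, at 2.88 ± 0.30 (adjusted p = 1.40e-20) and 2.87 ± 0.30 (adjusted p = 4.25e-20). Gap cells had 12 genes higher than all negative cells (15.8% and 23.3%), with the smallest adjusted p in CDKB2-1 (1.26 ± 0.24, adjusted p = 3.36e-06) and CYCA1-1 (1.24 ± 0.24, adjusted p = 4.32e-06). Gap cells had 5 genes higher than sub-epidermal miR165a cells (14.7% and 21.9%), with CYCA2-4 at 1.78 ± 0.31 (adjusted p = 1.78e-07), a share near the background.

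Gap cells and sub-epidermal REV cells had 0 genes called in either direction (14.7% and 19.7% of all genes). With the modelled SE, KNOLLE alone passed the adjusted p under the fold limit (26.8% of 3832 genes passed higher and 38.6% lower). It was lower in gap cells (-0.55 ± 0.21, adjusted p = 0.0452 to 0.0454), and 23 did not pass. An unadjusted p of at most 0.05 was found in 8 of the 24, and the share of all genes with one was not computed. The fold change was below 0 in 22 of the 24 genes, with a median of -0.41. Sub-epidermal REV cells had 13 genes higher and 1 lower than epidermal miR165a cells (18.8% and 19.4%), with the smallest adjusted p in CKS2 (1.25 ± 0.24, adjusted p = 4.40e-06), PLE (1.14 ± 0.23, adjusted p = 6.44e-06) and KNOLLE (1.07 ± 0.22, adjusted p = 8.55e-06). Epidermal miR165a cells had 1 gene higher than all negative cells (14.0% and 16.2%), again CYCA2-1.

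Without the fold limit and with modelled SEs, these comparisons were read over the 24 genes with levels, and those that passed were higher in the first population except where said. Sub-epidermal REV over all negative cells had 23 (17.9% of 3832 genes passed higher and 23.5% lower). Epidermal REV cells had all 24 over all negative cells (26.5% and 58.3%) and all 24 over sub-epidermal miR165a cells (26.3% and 53.4%). All 24 were already called with the fold limit in both comparisons of epidermal REV cells, so those counts add no evidence. Gap cells had 21 over all negative cells (29.9% and 47.1%) and 14 over sub-epidermal miR165a cells (29.0% and 42.5%). Epidermal miR165a cells had 6 over all negative cells (26.4% and 32.9%), and sub-epidermal REV cells had 19 higher and CYCA2-1 lower than epidermal miR165a cells (34.5% and 31.4%).

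CYCA2-1, an A-type cyclin, was the exception in direction. It stood at 36.4 normalized counts in epidermal REV cells, 28.3 in gap cells and 35 in epidermal miR165a cells, against 14.2, 14.7 and 8.52 in sub-epidermal REV, sub-epidermal miR165a and all negative cells. The lowest epidermal level was thus above the highest of the others. Gap cells over sub-epidermal REV cells did not pass the adjusted p in this gene, even without the fold limit and with the modelled SE. The REV over miR165a fold changes of CYCA2-1 were 0.06 in the epidermis and -0.06 below it. It was the 1 gene called lower in sub-epidermal REV than in epidermal miR165a cells (-1.30 ± 0.45, adjusted p = 0.0180). It was higher in epidermal than in sub-epidermal miR165a cells (1.25 ± 0.45, adjusted p = 0.0328) and higher in epidermal miR165a than in all negative cells (2.04 ± 0.46, adjusted p = 1.38e-04). Its counts are low, and it has log2 SEs of 0.30 to 0.35 per population.

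CYCA2-3, a cyclin of the same group, could be compared in fewer pairs. It was 1.18 ± 0.25 higher in epidermal REV than in epidermal miR165a cells (adjusted p = 1.48e-05). Epidermal REV cells were also 1.22 ± 0.25 higher than sub-epidermal miR165a cells (adjusted p = 3.67e-06), while sub-epidermal REV cells were at 0.16 over sub-epidermal miR165a cells. CYCA2-3 overlaps a gene on the other strand, and reads were not described as strand-marked, so reads within the shared stretch cannot be told apart. The length of that stretch was not measured. The same holds for CDKB1-1, CDKB1-2, CDKB2-1, CDKB2-2, KNOLLE, TPX2, the 3 Aurora genes, MAD2 and CCS52B, and CKS2 overlaps a gene on its own strand.

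The genes not linked over all populations had fewer values. CDC20.1, an activator of the APC/C, was 1.32 ± 0.34 higher in epidermal REV than in epidermal miR165a cells (adjusted p = 6.38e-04) and 1.25 ± 0.34 higher in sub-epidermal REV than in epidermal miR165a cells (adjusted p = 0.00191). The REV populations differed in CDC20.1 by 0.07, with no SE. BUBR1 was 1.41 ± 0.32 higher in the epidermal comparison (adjusted p = 6.93e-05) and 1.12 ± 0.32 in the sub-epidermal one (adjusted p = 0.00407). CCS52B, an activator of the APC/C made in mitosis, was 1.24 ± 0.28 higher in the epidermal comparison (adjusted p = 9.10e-05) and 0.95 ± 0.28 in the sub-epidermal one (adjusted p = 0.00677 to 0.00682).

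CYCB2-2 was called in 2 tables, at 1.16 ± 0.33 for epidermal REV over epidermal miR165a cells (adjusted p = 0.00203) and 1.06 ± 0.33 for sub-epidermal REV over epidermal miR165a cells (adjusted p = 0.00851). CYCB2-3 was called in 1, higher in epidermal REV than in all negative cells (1.32 ± 0.23, adjusted p = 9.62e-08). EDE1, a microtubule protein of the mitotic arrays, was called in 3, among them 1.35 ± 0.32 for epidermal REV over all negative cells (adjusted p = 8.64e-05). CYCB2-1, CYCA2-2 and CDC20.2 were in no table, and CYCA3-2 was only in the table of a fit on the epidermal REV and miR165a cells alone, at 1.01 ± 0.33 (adjusted p = 0.0113). Absence means that a gene missed a limit in every comparison, and its level is then unknown. The coding sequences of CDC20.1 and CDC20.2 are 97.5% identical, so how reads were split between them is uncertain.

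Other genes of the cell cycle were read from lists chosen with earlier results known. Of 33 further genes of mitosis, 22 were in the tables, and 17 were higher and 1 lower in epidermal REV than in epidermal miR165a cells (13.1% of all genes were called higher and 29.8% lower). MAD1, a checkpoint protein, was 1.45 ± 0.15 higher (adjusted p = 1.11e-21), FU, a phragmoplast kinase, 1.82 ± 0.19 (adjusted p = 3.24e-20), MAP65-4, a spindle microtubule bundler, 2.02 ± 0.24 (adjusted p = 1.35e-15), and WEE1, a kinase that restrains cyclin-dependent kinases, 2.55 ± 0.32 (adjusted p = 1.24e-13). The 1 lower gene was SNAP33 (-1.78 ± 0.12, adjusted p = 4.00e-50), a partner of KNOLLE that also serves membrane fusion outside division. Its level was 564 in epidermal REV cells, 905 in gap cells and 1609 to 1940 in the others. MYB3R4, an activator through the MSA element, was 1.35 ± 0.19 higher in epidermal REV than in epidermal miR165a cells (adjusted p = 2.68e-11) and 1.02 ± 0.18 higher than in gap cells (adjusted p = 1.21e-06).

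Below the epidermis, 7 of these 33 genes were higher and 1 lower in REV than in miR165a cells (12.7% and 13.1% of all genes). MAP65-4 (1.69 ± 0.24, adjusted p = 2.59e-10), FU (1.10 ± 0.19, adjusted p = 9.88e-08) and WEE1 (1.74 ± 0.32, adjusted p = 1.45e-06) were higher, and MAP65-2, a microtubule bundler of interphase and mitotic arrays, was lower (-1.02 ± 0.27, adjusted p = 0.00155). Gap cells against sub-epidermal REV cells had 1 of the 33 higher, MAP65-2 (1.14 ± 0.27, adjusted p = 1.87e-04), and 1 lower, ESP, the separase that frees sister chromatids (-1.50 ± 0.19, adjusted p = 2.64e-13), where 14.7% of all genes were called higher and 19.7% lower.

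Genes of DNA replication act in S phase. Of 17 such genes 14 were in the tables, and all 14 were higher in epidermal REV than in epidermal miR165a cells (13.1% of all genes), with MCM6 of the replicative helicase at 2.15 ± 0.29 (adjusted p = 1.81e-12) and RNR1 of nucleotide synthesis at 1.88 ± 0.28 (adjusted p = 3.20e-10). In gap over epidermal miR165a cells, 8 of the 17 were higher (5.05% of all genes), with MCM4 at 1.21 ± 0.30 (adjusted p = 0.00126), MCM6 at 1.11 ± 0.29 (adjusted p = 0.00204) and MCM7 at 1.17 ± 0.32 (adjusted p = 0.00400), and their median fold change was 1.11 over 10 genes. The mitotic genes had 1 of 35 called there and a median of 0.57. In epidermal REV over gap cells the counts were 2 of 17 for replication, PCNA2 at the limit (adjusted p = 0.0150) and MCM6 (1.04 ± 0.28, adjusted p = 0.00314), and 19 of 35 for mitosis (3.69% of all genes), with medians of 0.81 and 1.08. In gap over sub-epidermal REV cells the medians were 0.15 over 8 replication genes and -0.41 over 24 mitotic genes. These 3 comparisons share populations, and the difference between the lists was not tested.

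The sorted populations were checked by their markers. ATML1, the source of the blue promoter, stood at 3258 to 3488 normalized counts in the epidermal populations and 61.1 to 85.7 in the others, and all 5 epidermis markers were called higher in the epidermal over the sub-epidermal REV and miR165a cells. REV, the sort marker, was 1.17 ± 0.15 higher in epidermal REV than in epidermal miR165a cells (adjusted p = 4.02e-14) and 1.35 ± 0.15 higher in the sub-epidermal pair (adjusted p = 1.50e-18), and the yellow reporter carries REV itself.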

How the data were processed

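Protoplasts of ap1cal apices with 3 fluorescent reporters were sorted into 6 populations, with 3 libraries each, from a kit not described as marking strand. By the methods of the study and the labels, the authors checked reads with FastQC, trimmed with cutadapt, mapped to TAIR10 by TopHat, took exonic read counts by HTSeq and tested pairs of populations by DESeq2 (versions not given in the sources used here). The deposited signal is the mean of a gene's counts over libraries, after the authors scaled each library by its size factor. The authors also deposited log2 fold changes with standard errors, a score (the Wald statistic) and p-value columns (raw, and Benjamini-Hochberg adjusted). These comparison columns are all that the tables hold, so they were read as deposited, and no test on counts was possible. Depth per library is unknown.

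The tables list genes with adjusted p of at most 0.05 and an absolute log2 fold change of 1 or more only. Of 19 tables, 15 came from 1 fit on 6 populations (fold changes add up around 6738 triangles) and served for all comparisons, and 4 came from fits on 2 populations. In the 15 tables SEs never exceed 0.73, and fold changes of genes with an SE over 0.8 in the fits on 2 populations were a median 0.73 times as large, so fold changes of low genes look pulled towards 0. For the genes described the median ratio was 0.97 over 84 values.

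Unlisted fold changes were rebuilt as sums, and SEs from additive variances per population. Withheld values of the 35 genes were recovered, with SE errors of at most 0.0234%. The adjusted p of a rebuilt value was bounded by the listed genes next to it. The modelled SEs, added after seeing the data, assume negative binomial noise with 1 parameter per gene. They were off by a median of 0.67% and at most 2.97% for withheld SEs of the 35 genes. The rebuilding and modelling steps were tested on simulated data. Python 3.11.15, numpy 2.4.6, pandas 2.3.3 and scipy 1.17.1 were used.

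The genes and all lists were chosen with earlier results of these data known. In each comparison and role, up to 3 genes with the smallest adjusted p were open to naming, with all genes called against the majority, all in no table and all that passed the layer test. From the other lists up to 4 per comparison were open to naming, with any called against the majority. MYB3R4, AUR2, CYCA2-3 and the values of the levels were added for description after their values were seen. 1 listed gene was dropped, since the reference pairs its identifier with another symbol. The alternatives were a fold limit of 1.5 or none, an adjusted p of 0.01, a mean count of at least 50, the fits on 2 populations, SEs 1.5 times wider and a longer motif.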

Additional observations from a re-analysis of the deposited data

Results flagged for a closer look

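The fold change of REV over miR165a cells differed between the layers in 3 of the 10 genes tested (z test of the difference, two-sided, adjusted over 1733 genes). All 3 were larger in the epidermis, where 15.3% of the 1733 genes passed in that direction and 59.7% in either. CDKB1-1 was 1.96 in the epidermis and 0.98 below it, a difference of 0.98 ± 0.35 on the log2 scale (adjusted p = 0.0101). POK1 was 1.96 and 1.11, a difference of 0.85 ± 0.34 (adjusted p = 0.0248), and HINKEL was 1.60 and 0.82, a difference of 0.78 ± 0.32 (adjusted p = 0.0269). CDKB1-1 overlaps a gene on the other strand and has a close copy in CDKB1-2, and the part of either in the difference was not tested.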

How the results depend on the processing

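No paired analysis was possible because the tables hold no values per library, and for the same reason no library could be left out. Runs with other limits or other SEs kept the fold changes as they were, so they could not change a direction. Only the fits on 2 populations could do so. They use the same libraries, and only fold changes listed in both kinds of fit were compared, so a change of side was unlikely. With the fits on 2 populations, all 84 fold changes, all 156 levels and all 5 counts that have such a table kept their side or stayed within the limits set (counts within 1.5 times).

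With a fold limit of 1.5, the genes called higher were 18 for epidermal REV over epidermal miR165a, 1 for epidermal REV over gap, 0 for gap over epidermal miR165a, 5 for sub-epidermal REV over sub-epidermal miR165a, 6 for sub-epidermal REV over all negative, 0 for epidermal REV over sub-epidermal REV, 0 for epidermal over sub-epidermal miR165a, 1 for gap over all negative, 2 for gap over sub-epidermal miR165a, and 0 higher and 0 lower for sub-epidermal REV over epidermal miR165a. With an adjusted p of 0.01, CYCA2-4 was lost for gap over epidermal miR165a and CYCA2-1 for epidermal over sub-epidermal miR165a and for sub-epidermal REV over epidermal miR165a, which left 0 each. With a mean count of at least 50, CYCA2-1 was left out. This left 0 for epidermal over sub-epidermal miR165a, 0 for epidermal miR165a over all negative and 0 lower for sub-epidermal REV over epidermal miR165a. Gap over sub-epidermal miR165a had 3. The shares of all genes at these limits were not computed, so the counts show only how those above depend on the limits.

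Without a fold limit, rebuilt and modelled SEs gave 3 and 7 for gap over epidermal miR165a, 25 and 23 for sub-epidermal REV over sub-epidermal miR165a, 9 and 17 for epidermal REV over sub-epidermal REV, 6 and 6 for epidermal miR165a over all negative, 1 and 1 lower for gap over sub-epidermal REV, 11 and 14 for gap over sub-epidermal miR165a, and 23 and 22 for sub-epidermal REV over epidermal miR165a, and modelled SEs gave 21 for gap over all negative. These counts add listed genes outside the 24 with levels, so the shares given above for modelled SEs are not theirs. No shares of all genes were computed for rebuilt SEs. The layer test called 0 genes with SEs 1.5 times wider and 7 with modelled SEs, where more genes could be tested. The longer motif stood in 9 promoters in place of 22.

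The 11 genes without a level in every population are those listed in few tables, so the 24 with levels are those listed more often. Depth is unknown, and the number of libraries, 3 per population, limits the precision.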
